A study of Mus musculus with 2 samples.

Results

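The 10 genes described here carry the retinoic acid signal in vertebrate embryos. They were chosen by name as Rara, Rarb, Rarg, Rxra, Rxrg, Aldh1a2, Cyp26a1, Cyp26b1, Cyp26c1 and Crabp1, which are 10 of the 21853 protein-coding genes of the mouse annotation used (GENCODE vM21). By role there were 5 receptor genes, 1 synthesis gene, 3 degradation genes and 1 gene for a binding protein. Their open chromatin was read from DNase-seq, an assay in which DNase I cuts accessible DNA and the cut ends are sequenced. The tissue was whole neural tube, the precursor of brain and spinal cord, from healthy B6NCrl mouse embryos aged 11.5 days, with both sexes pooled. The 1 group held 2 biological replicates that carry the same donor label, with 1 library apiece. No treated, mutant or later group was analysed here, so the genes were compared with each other and with all protein-coding genes, and no test over samples could be made.

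Retinoic acid is made from vitamin A in cells that express a retinaldehyde dehydrogenase, spreads to neighbouring cells, and is destroyed by CYP26 enzymes, so its level depends on where both kinds of enzyme are made. In the nucleus it binds a retinoic acid receptor (RAR) paired with a retinoid X receptor (RXR), and the pair sits on direct repeats of a 6-base unit in target genes. In the developing spinal cord and hindbrain the signal helps to set the identity of segments and the onset of neuron formation. Rarb and Cyp26a1 are textbook target genes of the signal that they receive and remove, through repeats spaced by 5 bases at their promoters.

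The sequences at which these genes carry such repeats are shown because the openness of each could be read in both libraries. The 6-base units searched were AGGTCA, with the variants AGTTCA, then GGGTCA, then GGTTCA, with 1, 2 or 5 bases between them and on both strands. A match is a description of the letters and not a bound site. Capitals mark the repeat with its spacer, lower case marks the flanks, and the sequences are from RefSeq (GRCm38.p6, the same assembly as mm10).
Rarb, 250 bases before the RefSeq start, chr14:16575477-16575726, minus strand: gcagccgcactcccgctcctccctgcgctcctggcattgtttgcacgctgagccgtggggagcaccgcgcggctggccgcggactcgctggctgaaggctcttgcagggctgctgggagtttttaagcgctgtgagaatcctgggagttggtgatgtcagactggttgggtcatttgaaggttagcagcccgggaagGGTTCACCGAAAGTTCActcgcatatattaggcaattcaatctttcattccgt
Cyp26a1, 250 bases before the RefSeq start, chr19:37697558-37697807, plus strand: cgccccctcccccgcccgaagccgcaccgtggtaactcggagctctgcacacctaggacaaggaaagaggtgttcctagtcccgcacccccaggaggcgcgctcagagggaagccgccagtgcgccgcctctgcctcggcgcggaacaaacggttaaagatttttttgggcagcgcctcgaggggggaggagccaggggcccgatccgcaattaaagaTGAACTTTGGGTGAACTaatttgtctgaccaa
Rara, promoter peak of replicate 1, chr11:98959936-98960085, plus strand: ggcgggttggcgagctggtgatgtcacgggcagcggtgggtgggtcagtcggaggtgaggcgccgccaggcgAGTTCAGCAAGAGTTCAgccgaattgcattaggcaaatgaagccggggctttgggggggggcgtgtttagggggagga
Cyp26a1, distal peak of replicate 1, chr19:37789396-37789545, plus strand: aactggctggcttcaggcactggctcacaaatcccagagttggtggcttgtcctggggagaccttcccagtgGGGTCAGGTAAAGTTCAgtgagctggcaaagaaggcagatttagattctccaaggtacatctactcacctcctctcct

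The lists of the libraries differed in length. Replicate 1 held 199653 peaks and replicate 2 held 154324 peaks, each 150 bp long, and hotspots, which are the broader regions of raised cutting, covered 78.5 Mb in replicate 1 and 50.9 Mb in replicate 2. Depth is unknown, since the files hold no read counts. All 10 neural tube markers (Sox1, Sox2, Sox3, Pax6, Nes, Olig2, Tubb3, Elavl3, Dcx, Stmn2) had a promoter peak in both libraries. Of the 7 mesoderm markers 6 had one in replicate 1 and 7 in replicate 2, of the 3 neural crest markers 3 and 2, of the 4 endothelial markers 1 and 2, and of the 4 blood markers (Gata1, Klf1, Ptprc, Spi1) 0 and 0. Over all protein-coding genes 68.5% had one in replicate 1 and 67.7% in replicate 2. Promoters of marker genes of other tissues were open in these lists too. In whole tissue, fewer cells with an open region and a less open region per cell cannot be told apart.

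Most retinoic acid genes had open promoters. A promoter peak, which is a peak overlapping the 500 bp to either side of a transcription start site (TSS) of a protein-coding GENCODE transcript, was present for 10 of the 10 genes in replicate 1 and 9 of 10 in replicate 2. Among all protein-coding genes the percentage was 68.5% in replicate 1 and 67.7% in replicate 2. In both libraries together 9 of the 10 genes had one, against 66.5% of all genes, and hotspots gave the same 9 genes, against 67% of all genes (68.9% in replicate 1 and 68.1% in replicate 2). The exception was Cyp26c1, open in replicate 1 only. The genes had 31 promoter peaks in replicate 1 and 27 in replicate 2, and these were spread unevenly over alternative starts of the same gene.

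**Figure D1:**
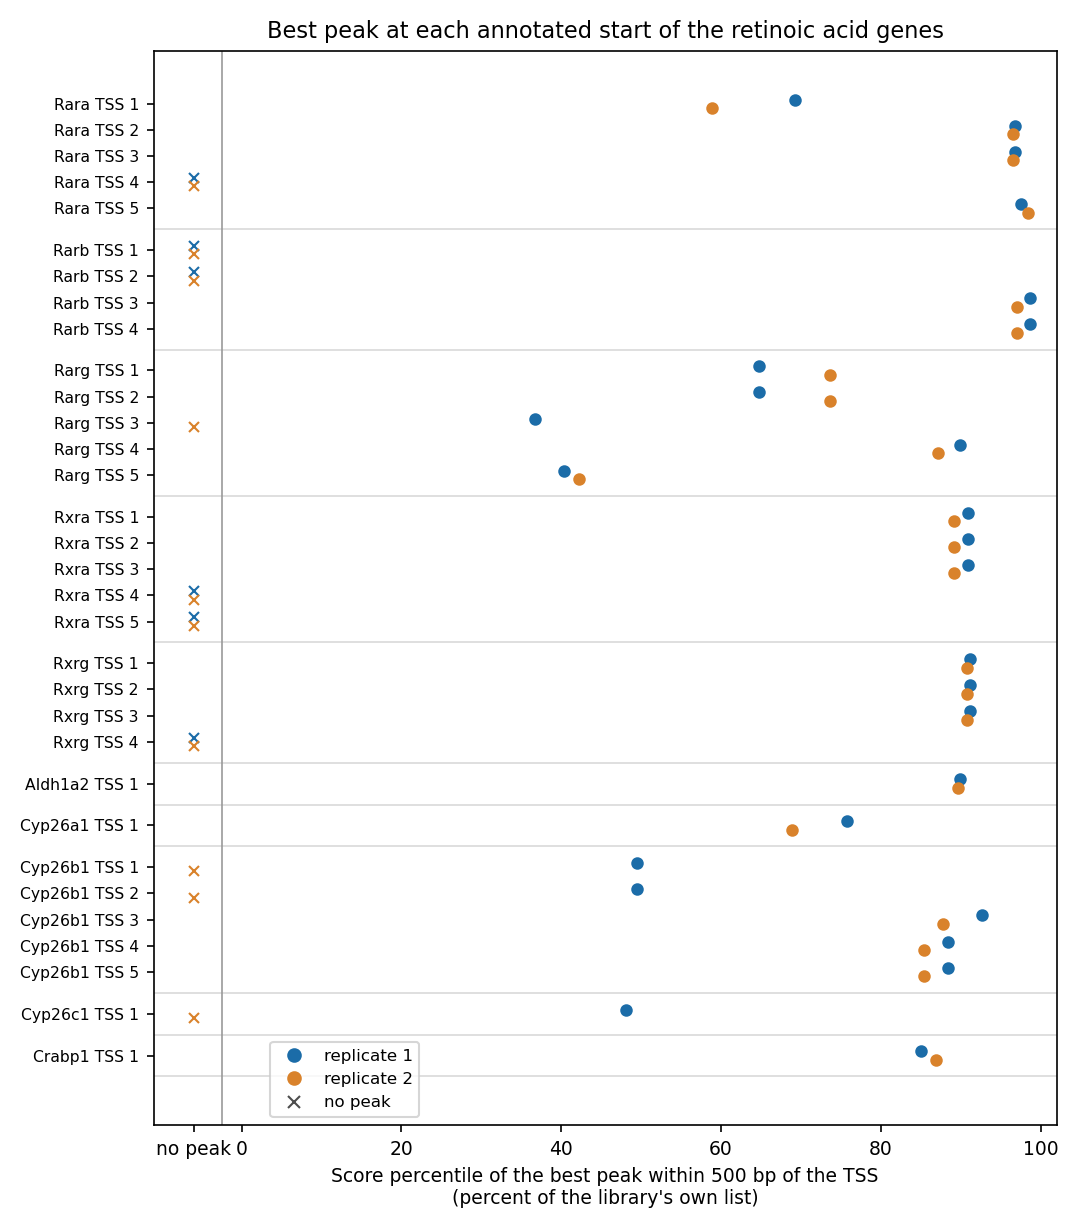
Score percentile (0 to 100, within the library's own list) of the best peak within 500 bp of each annotated start of the 10 genes, in replicate 1 (blue) and replicate 2 (orange); crosses at the left mark starts with no peak. Starts are numbered from the 5′ end of the gene. The last 2 starts of Rarb and the last start of Rara lie near the right edge, whereas the first 2 starts of Rarb have no peak in either library.

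Peaks are described by the score the authors gave them, as a percentile of the library's own list, because what the score measures was not stated in the sources read here. Rara, Rarb and Rarg encode the receptors that bind all-trans retinoic acid. Rara (chr11:98927818-98974942, plus strand) had its best promoter peak not at its most upstream start but at the most downstream of its GENCODE coding starts, 32594 bp into the gene. That peak reached percentile 97.5 in replicate 1 and 98.4 in replicate 2, and its hotspot measured 2214 bp in replicate 1 and 2250 bp in replicate 2. Its 2 middle starts, about 9.9 kb into the gene, had a best peak at percentile 96.7 in replicate 1 and 96.6 in replicate 2. The most upstream start had a weaker peak, at percentile 69.3 in replicate 1 and 58.9 in replicate 2. The start at 11893 bp had no peak and no hotspot in either library. Both replicates thus gave the same order of the Rara starts.

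Rarb (chr14:16430839-16819156, minus strand) was open at its inner promoter only. The 2 starts at the 5′ end of the gene had no peak and no hotspot in either library. The other 2 starts lie 243329 and 243613 bp further in and share 1 peak, at percentile 98.6 in replicate 1 and 97.0 in replicate 2. This was the highest promoter percentile of the 10 genes in replicate 1, and Rara alone was higher in replicate 2. The hotspot over this promoter measured 2653 bp in replicate 1 and 1269 bp in replicate 2, and it contained the repeat printed above in both.

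Rarg (chr15:102234938-102257517, minus strand) was most open at an inner start too, 11017 bp into the gene, with percentile 89.9 in replicate 1 and 87.2 in replicate 2. Its 5′ starts reached percentile 64.7 in replicate 1 and 73.7 in replicate 2. The start at 7171 bp had a peak in replicate 1 alone, at percentile 36.8. At the start at 13928 bp the peaks stood at percentile 40.4 in replicate 1 and 42.2 in replicate 2. The replicates therefore differed in the presence of a peak at 1 of the 5 Rarg starts, by a peak in the lower part of its list.

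Rxra and Rxrg encode RXR receptors, the dimer partners of the RARs, and were open at their 5′ ends. Rxra (chr2:27676440-27762957, plus strand) had peaks at its first 3 starts, the best at percentile 90.9 in replicate 1 and 89.2 in replicate 2. The hotspot there was 2129 bp long in replicate 1 and 4590 bp in replicate 2, longer in the library with the shorter list. Rxrg (chr1:167598384-167639623, plus strand) had its best peak over its first 3 starts at percentile 91.1 in replicate 1 and 90.8 in replicate 2. The inner starts of both genes, 2 in Rxra and 1 in Rxrg, had no peak in either library. All 3 RAR genes had their best promoter peak at an inner start in both libraries, and both RXR genes had it at the 5′ end.

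Aldh1a2 encodes retinaldehyde dehydrogenase 2, the enzyme that makes retinoic acid in the early embryo. Its single start (chr9:71215789, plus strand) had a best promoter peak at percentile 89.9 in replicate 1 and 89.7 in replicate 2. The hotspot there was 3222 bp long in replicate 1 and 2170 bp in replicate 2.

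The CYP26 genes encode cytochrome P450 enzymes that oxidise retinoic acid for removal. Cyp26b1 (chr6:84571414-84593908, minus strand) had its best promoter peak at an inner start, 5270 bp into the gene, at percentile 92.7 in replicate 1 and 87.8 in replicate 2. Its 5′ starts had a peak in replicate 1 alone, at percentile 49.5. A hotspot of 7915 bp in replicate 1, longer than 99.96% of the hotspots of that library, ran over the inner starts and held 15 peaks. In replicate 2 it measured 4161 bp and held 9 peaks. Cyp26a1 (chr19:37697798-37701536, plus strand) had a weaker promoter peak, at percentile 75.7 in replicate 1 and 68.9 in replicate 2, inside a hotspot of 4497 bp in replicate 1 and of 2445 bp in replicate 2. Cyp26c1 lies upstream of Cyp26a1 on the same strand (chr19:37685581-37693398). It had 4 promoter peaks in replicate 1, none above percentile 48.1, and none in replicate 2, where the nearest peak lay 915 bp from the start and no hotspot reached the promoter. Among the degradation genes Cyp26b1 thus had a higher best promoter percentile than Cyp26a1 in both libraries, and Cyp26c1 was lowest in replicate 1 and had no promoter peak to rank in replicate 2.

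Crabp1 encodes a cytosolic protein that binds retinoic acid. Its start (chr9:54764748, plus strand) had a best peak at percentile 85.0 in replicate 1 and 86.9 in replicate 2, in a hotspot of 1664 bp in replicate 1 and of 1155 bp in replicate 2.

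Away from promoters the retinoic acid genes had many open regions. Peaks centred over 1 kb away from all protein-coding TSSs were called distal and counted for the gene whose TSS was closest, and the territory of a gene is the stretch of genome nearer to its TSSs than to those of other genes. The 10 genes had 279 distal peaks in replicate 1 and 204 in replicate 2. All 10 had at least 1 in both libraries, against 73.7% of all genes in replicate 1 and 69.8% in replicate 2. The mean per gene was 27.9 in replicate 1 and 20.4 in replicate 2, against 7.47 and 5.52 over all genes. The territories of the 10 genes ran from 26.3 kb (Rarg) to 745 kb (Rarb), so the count was also taken per length. It came to 13.4 and 9.81 distal peaks per 100 kb, against 5.99 and 4.43 over the whole genome. All 10 genes were above the mean of the genome in both libraries, as were 46.1% of all genes in replicate 1 and 44.2% in replicate 2. Hotspots, those at promoters included, covered 5.96% of their territories in replicate 1 and 4.30% in replicate 2, against 2.88% and 1.87% over all genes.

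**Figure D2:**
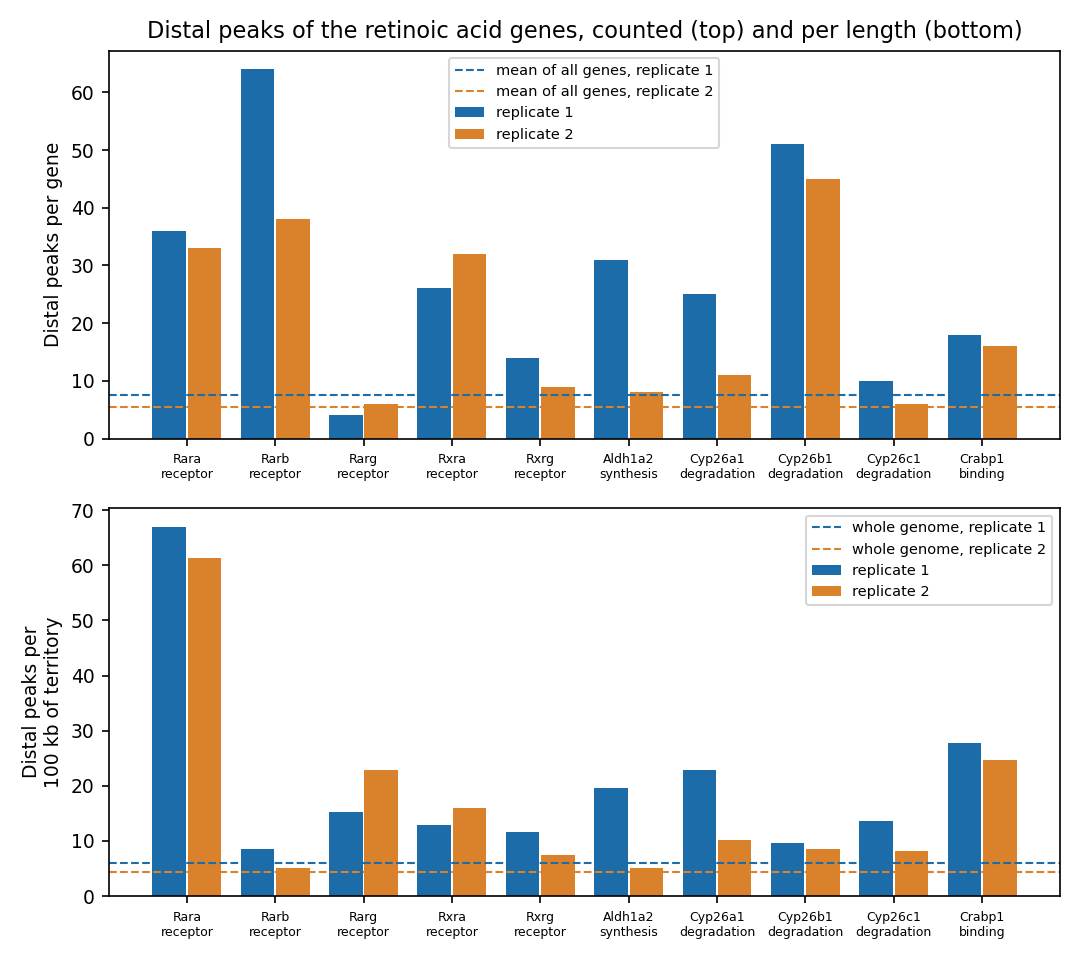
Distal peaks of each gene as a count (top) and per 100 kb of territory (bottom), with replicate 1 in blue and replicate 2 in orange. Dashed lines give the mean per gene over all protein-coding genes (top, 7.47 and 5.52) and the density of the whole genome (bottom, 5.99 and 4.43); Rarb leads by count in replicate 1 with 64, and Rara leads by density in both libraries.

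Rara had the densest territory. It had 36 distal peaks in replicate 1 and 33 in replicate 2 within 53.7 kb, or 67.0 and 61.4 per 100 kb, and 99.6% and 99.4% of all genes had a lower density. Hotspots, those at promoters included, covered 38.6% of this territory in replicate 1 and 34.0% in replicate 2. Of the distal peaks 26 in replicate 1 and 29 in replicate 2 lay within the gene itself. The longest hotspot held 9 peaks and none of the GENCODE coding starts in each library, at chr11:98962890-98967523 in replicate 1 (4634 bp) and chr11:98962443-98967495 in replicate 2 (5053 bp). A RefSeq promoter of Rara, chr11:98964622-98964921, lay within it in both. Taking the mean of both percentiles as the measure, here and for the other genes, the best distal peak found in both libraries lay in an intron 8.44 kb beyond the last start, at chr11:98968776-98968925, with percentile 97.3 in replicate 1 and 96.2 in replicate 2. The distal peaks of Rara were also high in their lists, with a median percentile of 72.9 in replicate 1 and 69.8 in replicate 2, against 43.7 and 42.2 for all distal peaks.

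Rarb had the most distal peaks in replicate 1 and the longest territory. The count was 64 in replicate 1 and 38 in replicate 2 over 745 kb, or 8.59 and 5.10 per 100 kb, which was the lowest density of the 10 genes in replicate 1. The farthest lay 387 kb from the nearest Rarb start in replicate 1 and 354 kb away in replicate 2. The best distal peak found in both libraries was itself remote, in intergenic DNA 354 kb upstream at chr14:17172816-17172965, with percentile 92.5 in replicate 1 and 92.1 in replicate 2 and a GC content of 78.7%. Rarb also held the only distal or promoter peak of the 10 genes that was in the top 10% of its list with no peak over it in the other library. This was a peak of replicate 1 at chr14:16901736-16901885, at percentile 90.2. It lay inside a hotspot of replicate 2, and the closest Rarb peak of replicate 2 stood at percentile 77.0.

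Rarg had few distal peaks in a short territory, 4 in replicate 1 and 6 in replicate 2 within 26.3 kb, or 15.2 and 22.8 per 100 kb. Hotspots, those at promoters included, covered 25.1% of that territory in replicate 1 and 25.3% in replicate 2. Its best distal peak found in both lay in an exon, 4.18 kb beyond the last start, at percentile 89.2 in replicate 1 and 91.0 in replicate 2. Rarg and Rxra were the 2 genes with more distal peaks in replicate 2 than in replicate 1. Rxra had 26 in replicate 1 and 32 in replicate 2, or 13.0 and 16.0 per 100 kb. Its best distal peak, at percentile 94.4 in replicate 1 and 91.9 in replicate 2, lay in an exon of Rxra at chr2:27740376-27740525, where the annotation starts a non-coding transcript of the gene. Rxrg had 14 in replicate 1 and 9 in replicate 2, or 11.6 and 7.43 per 100 kb, led by an intergenic peak 26.8 kb beyond its last start at percentile 91.4 and 87.5.

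Aldh1a2 differed most between the libraries. It had 31 distal peaks in replicate 1 and 8 in replicate 2, a ratio of 3.88, against 1.35 for all distal peaks of the libraries. Of the 31 peaks of replicate 1, 7 overlapped a peak of replicate 2, and these had a median percentile of 61.4. The other 24 lay in no hotspot of replicate 2 and had a median percentile of 18.9. The peaks found in replicate 1 alone were therefore mostly from the lower part of its list. With the lists brought to the same number of peaks by score, the counts were 18 in replicate 1 and 8 in replicate 2. By mean percentile the best distal peak found in both stood in the gene's intron, 1301 bp from the start, at percentile 82.0 in replicate 1 and 57.5 in replicate 2. In neither library was it the highest of the 7, which was at percentile 86.4 in replicate 1 and another, at 63.9, in replicate 2. The mesoderm markers, of which 6 of 7 had a promoter peak in replicate 1 and 7 of 7 in replicate 2, had 163 distal peaks in replicate 1 and 134 in replicate 2, a ratio of 1.22. The same ratio was 1.37 for the neural tube markers, 1.61 for neural crest, 1.49 for endothelium and 1.29 for blood. The part of cell composition or of list length in the Aldh1a2 gap was not tested.

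Of the degradation genes, Cyp26b1 had 51 distal peaks in replicate 1 and 45 in replicate 2 over 528 kb, or 9.66 and 8.52 per 100 kb. Its best distal peak lay in its own intron 4.15 kb beyond the last start, at percentile 93.7 in replicate 1 and 92.4 in replicate 2, with a GC content of 75.3%. Of all its distal peaks, near and remote, 30 of the 51 in replicate 1 and 33 of the 45 in replicate 2 overlapped a peak of the other library. Those from −36.6 to −186 kb of its first start lay in introns outside Cyp26b1 and were counted for it by distance alone. Cyp26a1 had 25 in replicate 1 and 11 in replicate 2, or 22.9 and 10.1 per 100 kb. Its best distal peak lay at −4.71 kb from its start, in an exon of Cyp26c1, at percentile 90.5 in replicate 1 and 88.1 in replicate 2. Cyp26c1 had 10 in replicate 1 and 6 in replicate 2, or 13.6 and 8.14 per 100 kb, the best in its own exon, 5.35 kb from the start, at percentile 80.3 in replicate 1 and 76.4 in replicate 2. In replicate 1 this was above the best promoter peak of the gene. Crabp1 had 18 in replicate 1 and 16 in replicate 2, or 27.8 and 24.8 per 100 kb, with 15 and 14 of them found in the other library. Its best distal peak lay at −11958 bp from the start, at percentile 84.1 in replicate 1 and 84.2 in replicate 2.

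**Figure D3:**
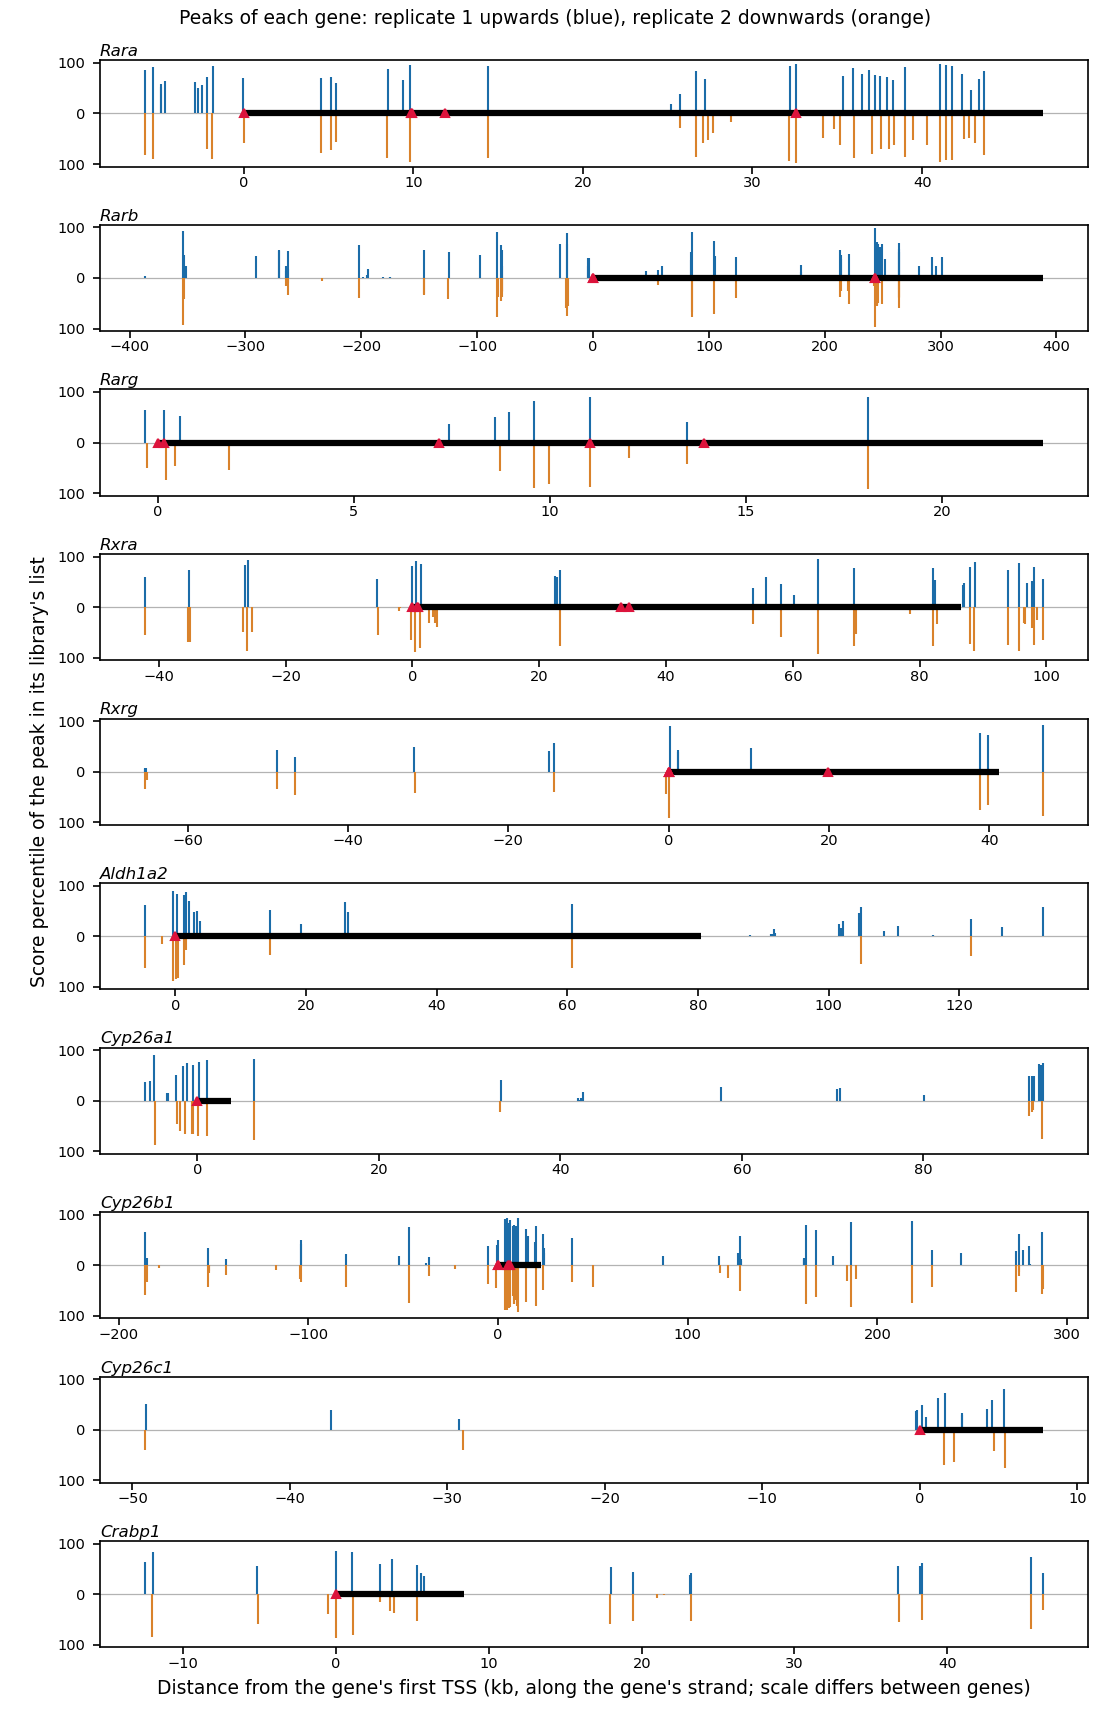
Every promoter and distal peak of the 10 genes, with replicate 1 drawn upwards in blue and replicate 2 downwards in orange; height is the score percentile within the library, and the horizontal axis is distance from the gene's first start in kb, on its own scale for each gene. Black bars are gene bodies and red triangles annotated starts. Peaks crowd the body of Rara, whereas those of Rarb and Cyp26b1 are spread over 745 and 528 kb of territory, and Aldh1a2 shows 31 distal peaks above the axis and 8 below it.

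Set side by side by role, receptors and degradation genes had close densities over whole territories and the synthesis gene changed place between the libraries. Receptors had 12.6 distal peaks per 100 kb in replicate 1 and 10.3 in replicate 2, with a mean of 11.4 ± 1.60 (SD, n = 2 libraries). Aldh1a2 had 19.6 and 5.06, with a mean of 12.3 ± 10.3. Degradation genes had 12.1 and 8.72, with a mean of 10.4 ± 2.39. The gap between receptors and degradation genes was smaller than the gap between the libraries within either role. This did not hold for all settings. When only peaks within 100 kb of a TSS were counted, receptors had 10.6 in replicate 1 and 9.24 in replicate 2. Degradation genes had 8.30 and 5.20. These counts were still divided by whole territories, including the parts beyond 100 kb, so they are not densities of the nearer DNA. With the higher-scoring 50% of each list receptors had 7.59 and 5.67 against 5.20 and 4.08, and in both settings the gap between the roles passed that between the libraries in the receptors or the degradation genes. Aldh1a2 stood above both roles in replicate 1 and below both in replicate 2. Per gene, receptors had 28.8 and 23.6 distal peaks, Aldh1a2 31 and 8, and degradation genes 28.7 and 20.7. Rara set much of the receptor density, since without it the other receptors had a mean of 8.83 per 100 kb. By library they had 9.88 in replicate 1 and 7.78 in replicate 2, below the degradation genes in both. Promoter peaks were present for 5 of 5 receptors in both libraries, for the synthesis gene in both, and for 3 of 3 degradation genes in replicate 1 and 2 of 3 in replicate 2.

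**Figure D4:**
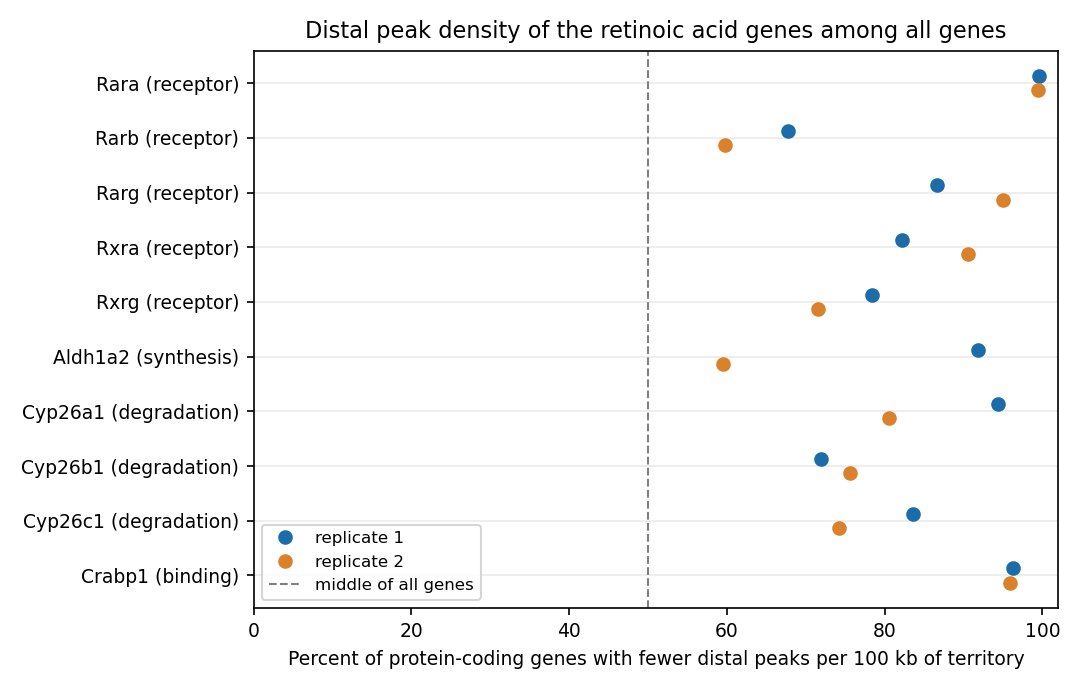
Percent of all protein-coding genes that had fewer distal peaks per 100 kb of territory than each retinoic acid gene, in replicate 1 (blue) and replicate 2 (orange). All 10 genes lie right of the dashed middle in both libraries; Rara is at 99.6 and 99.4, and Aldh1a2 has its points far apart, at 91.8 and 59.5.

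Of the distal peaks of the 10 genes, 50.9% in replicate 1 and 70.6% in replicate 2 overlapped a peak of the other library, against 48.1% and 66.4% of all distal peaks. The peaks found again were higher in their list, with a median percentile of 66.3 in replicate 1 and 58.9 in replicate 2, than those not found, at 34.9 and 30.9. By position, 124 were in introns, 16 in exons and 139 in intergenic DNA in replicate 1, and 100, 12 and 92 in replicate 2. Their median GC content was 52% in replicate 1 and 54.7% in replicate 2, against 50% and 52.7% for all distal peaks. The share found again and the GC content thus lay within 5 percentage points of those of all distal peaks, whereas the number per length was above that of the genome.

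Direct repeats of the 6-base unit were found near starts of several of these genes. Within 500 bp of a TSS, 5 of the 10 genes (Rara, Rarb, Rarg, Rxra and Cyp26a1) held a repeat with a spacing of 1, 2 or 5, against 504 of all 21853 genes, or 2.31%. With a spacing of 5 there were 4 (Rara, Rarb, Rarg and Cyp26a1), against 99 of all genes, or 0.453%. Several of these genes have more starts than 1, so more sequence was searched in them, and the repeats of Rarb and Cyp26a1 were known beforehand. In RefSeq promoters, which run from 250 bases before to 50 after a start, 2 of the 16 promoters of the 10 genes held a repeat, against 0.588% of all 32851 promoters. Over promoters, peaks and hotspots 14 distinct repeats were found in 7 of the 10 genes, 8 of them with a spacing of 5. Of the 14, 6 lay whole within a hotspot of both libraries, and 5 of those 6 had a spacing of 5. Repeats away from starts entered this list only by lying in a peak or hotspot. The counts are therefore not a share of repeats that are open, and no share over all genes is given beside them.

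The open repeats belonged to Rara, Rarb, Cyp26a1 and Cyp26b1. That of Rara, AGTTCAgcaagAGTTCA at chr11:98960008-98960024, lay −396 bp from the last start, in an intron of the longer transcripts. It was the 1 repeat near a start that lay wholly within a peak in both libraries, at percentile 93.7 in replicate 1 and 93.2 in replicate 2. That of Rarb, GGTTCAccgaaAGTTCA at chr14:16575513-16575529 on the minus strand, lay from −53 to −37 of the RefSeq start. Measured from its middle, it lay 22 bp beyond the last GENCODE start. It was covered in part by the strong promoter peak of replicate 1 and by no peak of replicate 2, but was within the hotspot of both. The promoter repeat of Cyp26a1, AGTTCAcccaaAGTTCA on the minus strand at chr19:37697776-37697792, lay from −32 to −16 of the RefSeq start. It lay outside the peaks of both libraries and, like that of Rarb, within the hotspot of both.

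Cyp26a1 had more open repeats than any other of the 10 genes. Another, GGGTCAcaggcGGGTCA, lay −1.88 kb from the start at chr19:37695909-37695925, in a peak of replicate 2 at percentile 60.3 and in hotspots of both libraries. A further repeat, GGGTCAggtaaAGTTCA, lay 91.7 kb downstream at chr19:37789468-37789484 and was within a peak of both, at percentile 48.1 in replicate 1 and 30.9 in replicate 2. That region is the distal Cyp26a1 peak printed above, in intergenic DNA, and it was counted for Cyp26a1 by distance alone. The last, AGTTCAaaAGTTCA with a spacing of 2, lay 91.9 kb downstream, in a peak of replicate 2 at percentile 21.8 and in a hotspot of replicate 1. The repeat of Cyp26b1, AGTTCAacAGTTCA with a spacing of 2, lay 156 kb downstream at chr6:84431576-84431589, in a peak of replicate 2 at percentile 75.7 and in hotspots of both.

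**Figure D5:**
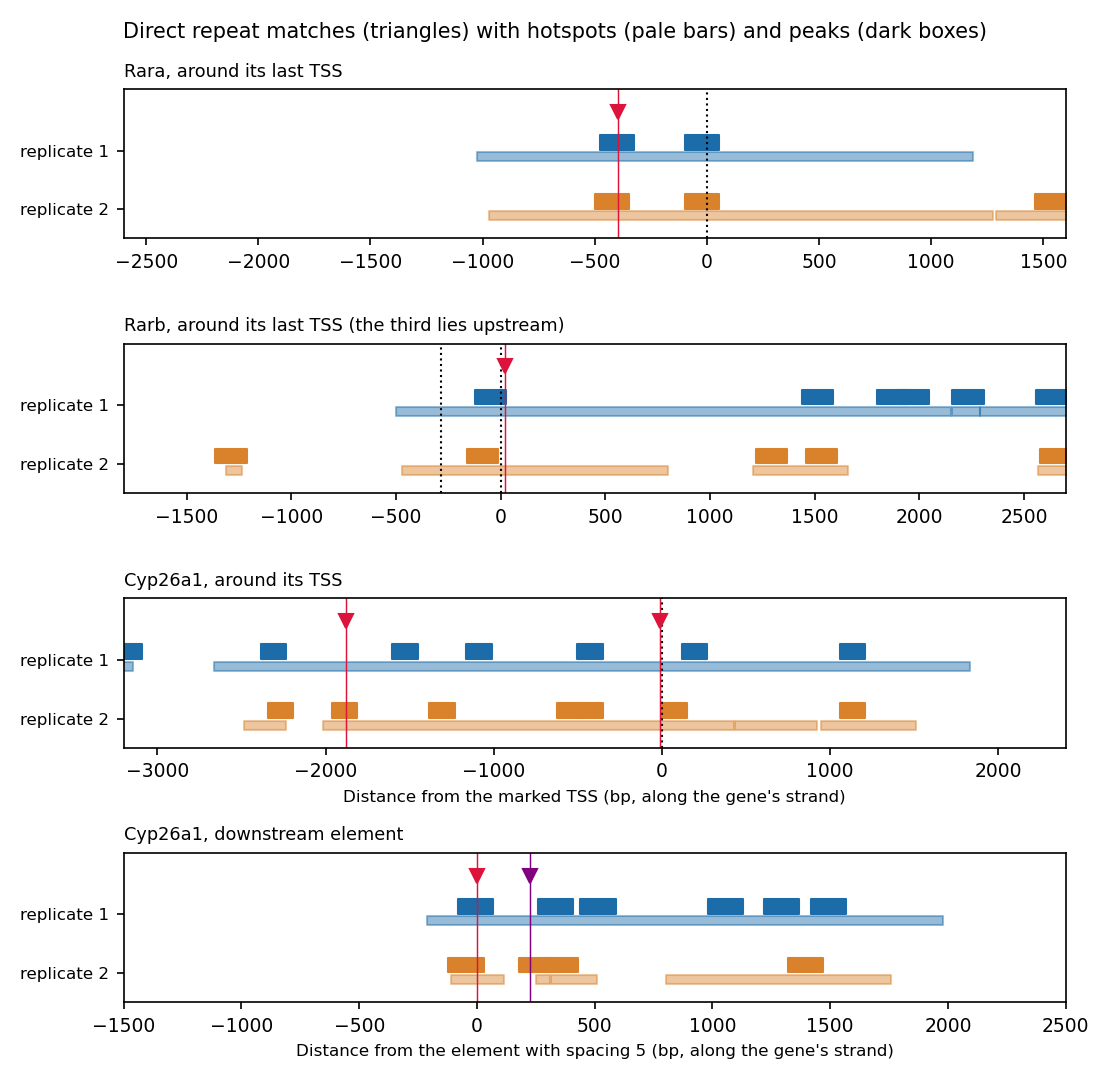
Positions of direct repeats (triangles and vertical lines; red for a spacing of 5, purple for a spacing of 2), hotspots (pale bars) and peaks of 150 bp (dark boxes) in replicate 1 (blue) and replicate 2 (orange). Distance runs in bp from the last start for Rara and Rarb, from the start for Cyp26a1, and from the downstream repeat in the lowest panel; dotted lines are starts. The repeats at −396 bp in Rara and 91.7 kb downstream of Cyp26a1 fall in peaks of both libraries, and those at the promoters of Rarb and Cyp26a1 fall in hotspots of both.

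Other repeats were closed or weakly open. Rarg held 2 overlapping repeats at −479 and −488 bp of its start at 7171 bp, in no peak or hotspot of either library. Rxra held 1 at 152 bp beyond its last start, which was also closed. A pair at −181 kb from the first start of Rarb lay in a single weak peak of replicate 1, at percentile 2.72, with no hotspot. Another of Rxra, 62.4 kb beyond the last start, was open in replicate 2 alone, at percentile 33.9 in the higher of 2 overlapping peaks. The repeat of Crabp1, −4.93 kb from its start, lay in a hotspot of replicate 2 alone. Aldh1a2, Rxrg and Cyp26c1 held none.

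Per length of hotspot, the territories of the 10 genes held 5.64 repeats per 100 kb in replicate 1 and 8.94 in replicate 2, against 2.71 and 2.27 for all hotspots. These rates rest on 7 and 8 repeats. Of the distal peaks alone, 0.717% in replicate 1 and 2.94% in replicate 2 held a repeat, which was 2 of 279 and 6 of 204, against 0.654% and 0.505% of the distal peaks of other genes. In replicate 2, 2 of the 6 peaks with a repeat overlapped each other and held the same repeat of Rxra. The libraries differed in the share by more than the members and the other genes did in replicate 1, so it rests on few peaks. Motifs of other factor families were counted in the same peaks. The SOX motif (ACAATG or else ACAAAG) was in 15.8% of the members' distal peaks in replicate 1 and 16.7% in replicate 2, against 24.0% and 20.6%. The TALE motif TGACAG was in 16.5% and 15.7%, against 13.7% and 13.6%, and the E-box CAGCTG in 16.1% and 18.6%, against 15.7% and 17.1%. The homeodomain motif TAATTA was in 5.02% in replicate 1 and 1.96% in replicate 2, against 3.84% and 2.53%.

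Of 18 other genes of the pathway, 16 had a promoter peak in replicate 1 and 15 in replicate 2. Among all protein-coding genes, 68.5% and 67.7% had a promoter peak. All 6 co-regulators had one in both libraries, as did both binding-protein genes and Rxrb, and of 9 genes for synthesis and retinol handling 7 had one in replicate 1 and 6 in replicate 2. Aldh1a1, another retinaldehyde dehydrogenase, had no promoter peak in either library, and its nearest peak lay 14317 bp away in replicate 1 and 32415 bp in replicate 2. Bco1, which cleaves beta-carotene, had a promoter peak in replicate 1 only. Of distal peaks, the co-regulator Nrip1 had 50 in replicate 1 and 31 in replicate 2, and the co-activator Ncoa3 had 28 in replicate 1 and 19 in replicate 2. By this count Rarb and Cyp26b1 stood above Nrip1 in both libraries, with 64 and 51 in replicate 1 and 38 and 45 in replicate 2. Aldh1a2, with 31 in replicate 1 and 8 in replicate 2, stood above Ncoa3 in replicate 1 and below it in replicate 2.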

How the data were processed

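DNase-seq peaks and hotspots of 2 libraries of 1 group were used. Per the deposited files, the authors called both in each library on mm10 without pooling; aligner, caller and threshold: not given in the sources used here. Each peak carries a score that the authors deposited, used only to rank peaks within a list (ties share the middle percentile). Each hotspot carries a −log10 q-value that the authors deposited, at most 100. Repeated rows were dropped, 45 and 22, and peaks on assembled chromosomes kept, 199411 and 153974.

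TSSs were those of protein-coding transcripts of GENCODE vM21 (54361 distinct); TSSs of all transcripts, first intended as the main set, became an alternative after the annotation was seen. Overlap required 1 bp. Sequences came from GRCm38.p6. Scripts ran in Python 3.11.15 with NumPy 2.4.6 and were tested on simulated data. The members and lists were chosen with earlier results of these data known. Named were all members, repeats, strong peaks of 1 library (top 10%), and pathway genes lacking a promoter peak or leading by distal peaks; some genes that this rule names are left out of the text. No p-values were computed, because 1 group gives no comparison of samples. Replicates share a donor label, so their spread may be technical. Alternatives changed windows, distances, lists, hotspots, TSS sets, motif rules and libraries.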

Additional observations from a re-analysis of the deposited data

How the results depend on the processing

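Over 9 results and 69 alternative values, 54 were kept and 15 moved. Counts and densities were kept when within 1.5 times the main value, and the shares of peaks found again or with a repeat when within 1 SD of the libraries. With 2 libraries, each library always lies within 1 SD of their mean. For these shares, leaving out 1 library could therefore not move the value, and those alternatives are among the 54 kept. With the higher-scoring 50% of each list, mean distal peaks per gene were 15.2 for receptors (6.63 per 100 kb), 6.5 for the synthesis gene (4.11) and 11 for degradation genes (4.64). Within 100 kb of a TSS they were 12.5 for the synthesis gene (7.90) and 16 for degradation genes (6.75), with 22.7 for receptors (9.90). The values in brackets were still taken per 100 kb of whole territory, including the parts beyond 100 kb. Receptors and degradation genes were no longer close in this setting. Leaving out 1 library gave 8 to 31 for the synthesis gene, or 5.06 to 19.6 per 100 kb, and replicate 2 is the library with 8. Allowing 1 mismatch in a repeat raised the share of distal peaks with one to 6.92%, against 1.83% without. By library it was 5.02% in replicate 1 and 8.82% in replicate 2, against 4.48% and 4.22% of the distal peaks of other genes. The causes were not tested beyond what the construction of each alternative shows: shorter lists and nearer limits leave fewer peaks, and a looser motif finds more. The count of genes with a promoter peak in both libraries was 9 to 10 in every alternative run, and 10 with a window of 1000 bp, in which Cyp26c1 gains a peak of replicate 2. TSSs of all transcripts were the set first intended as main, and protein-coding TSSs replaced them after the annotation was seen. The intended set gave 9 genes, 25.5 distal peaks per receptor, 19.5 for the synthesis gene and 20.2 per degradation gene. Per 100 kb it gave a mean of 11.1 for receptors and 11.5 for degradation genes, against 11.4 and 10.4 in the main setting. The order of these roles was thus reversed in the mean. It was also reversed in replicate 1, at 12.2 and 13.9, whereas receptors stayed higher in replicate 2. No paired analysis was possible because there is 1 group, so no other group shares the replicate numbers. The lists are limited by depth, which is unknown, and the members' distal peaks found in 1 library alone were lower in their lists than those found in both.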
